A study of Homo sapiens with 54 samples.

Results

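RB1, the E2F transcription factors E2F1, E2F2, E2F3, E2F7 and E2F8, and the G1 cyclins CCND1, CCND3, CCNE1 and CCNE2 were followed through 18 conditions of olaparib and cisplatin (CDDP) treatment in a pair of triple negative breast cancer (TNBC) lines. These 10 genes were taken by symbol from the 27470 genes of the deposited expression table, and all 10 had reads in both lines. RNA was measured by 3′ mRNA sequencing, which reads 1 end of each transcript, in 54 libraries, 3 for each condition. SUM1315, a BRCA1 mutant TNBC line, and MDA-MB-468, a BRCA1 wild type TNBC line, contributed 27 libraries each.

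Parental SUM1315 cells were left untreated or were treated overnight with olaparib at 8 µM, with CDDP at 2 µM (low dose) or 4 µM (high dose), or with olaparib together with either CDDP dose. Parental MDA-MB-468 cells were treated in the same way with olaparib at 3 µM and CDDP at 1 µM (low dose) or 2.5 µM (high dose). Olaparib-resistant (OlaR) cells of each line had been selected in stepwise doses of olaparib over months and were kept in olaparib throughout, at 25 µM for SUM1315 and at 15 µM for MDA-MB-468. OlaR cells were examined as they were, or with the low or high CDDP dose of their line. The OlaR cells are cultures of 1 selection per line, not stated to be clones, and no OlaR library was made without olaparib. Resistance and a longer, higher olaparib exposure therefore cannot be told apart in any comparison of OlaR with parental cells. Doses also differed between the lines, and libraries were sequenced in batches of 27 that the labels do not assign. Levels were for this reason tested only within a line, and the lines were compared by their changes.

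Olaparib inhibits PARP enzymes, which act at DNA strand breaks, and CDDP forms platinum crosslinks in DNA. The RB protein binds E2F factors and holds their target genes silent in early G1. Cyclin D with CDK4 or CDK6, and then cyclin E with CDK2, phosphorylates RB and frees E2F, which switches on the genes of DNA replication. E2F1, E2F2 and E2F3 are the activators of this set, and E2F7 and E2F8 are repressors that close the wave later in S phase. Several of these genes, among them E2F1, E2F2, CCNE1 and CCNE2, are themselves E2F targets, so that their RNA moves with cell cycle position as well as with signalling. In bulk RNA, a larger share of cells in a phase and more RNA per cell cannot be told apart.

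Values are the deposited adjusted read counts, which are reads scaled to 1 library size. The libraries held 2070301 to 9268162 reads, with medians of 6173974 in parental and 3900438 in OlaR SUM1315 libraries, and of 7331369 in parental and 4455837 in OlaR MDA-MB-468 libraries. OlaR values thus rest on fewer reads. The receptors that define TNBC were low: PGR was at most 3.09 in any library, ERBB2 was 5.33 to 63.3, and ESR1 was 0 to 25.6 in SUM1315 but 24.9 to 74.4 in parental and 121 to 221 in OlaR MDA-MB-468 cells. SUM1315 cells had nearly no EPCAM (0 to 4.61) or CDH1 (0 to 3.90), both epithelial adhesion genes. The epithelial keratins KRT8 (17.7 to 154) and KRT18 (231 to 598) were read there. VIM, a mesenchymal filament gene, was 7929 to 13246 in SUM1315. The basal keratin KRT5 was 247 to 556 in parental and 3037 to 3760 in OlaR MDA-MB-468 cells. Of the other basal genes in that line, KRT14 was 2.03 to 21.8, KRT17 168 to 836 and EGFR 1304 to 2933. PTPRC, a leukocyte gene, was at most 6.97. Of the fibroblast genes, DCN was at most 10.4, while COL1A1 was 132 to 796 in SUM1315 and 22.2 to 78.9 in MDA-MB-468. RB1 is known to be lost in MDA-MB-468, and its level there was 6.17 to 30.6, on 6 to 25 reads per library. RB1 was 118 to 556 in SUM1315.

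The promoters of E2F1, E2F2 and E2F3 are shown because each holds letters of the classical E2F site, to which E2F factors bind. The 250 bases before each transcript start of RefSeq (GRCh38.p14) were searched on both strands for TTTCCCGC, TTTCGCGC, TTTGCCGC and TTTGGCGC. A match stood in 2.79% of 35116 such windows. RefSeq windows were at hand for 7 of the 10 genes. The 100 bases just before the start are printed 5′ to 3′ on the strand of the gene, with matches to the searched letters or to their reverse complement in capitals.
E2F1 (chr20:33686386-33686485, minus strand): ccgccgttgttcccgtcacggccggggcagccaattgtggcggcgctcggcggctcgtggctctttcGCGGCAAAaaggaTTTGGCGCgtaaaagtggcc
E2F2 (chr1:23531234-23531333, minus strand): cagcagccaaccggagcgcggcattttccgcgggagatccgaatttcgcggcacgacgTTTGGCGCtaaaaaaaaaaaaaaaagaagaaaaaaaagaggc
E2F3 (chr6:20401779-20401878, plus strand): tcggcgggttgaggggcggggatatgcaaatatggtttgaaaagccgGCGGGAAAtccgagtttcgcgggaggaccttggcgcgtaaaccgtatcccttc

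E2F1 had 2 matches, 1 on each strand, and E2F2 and E2F3 had 1 each. E2F3 has 2 windows, from alternative starts, and the match was in the upstream one. These letters were not in the windows of E2F7, CCNE1, CCND3 (3 windows) or RB1, whose single window belongs to an alternative start inside the gene. A match to letters is a description and not a measured binding site.

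Changes were tested with limma on log2 of the value plus 1, over all genes of a line that reached a value of 10 in 3 or more libraries. A log2 fold change on this scale understates the change of a low gene. A gene passed at a Benjamini-Hochberg adjusted p of 0.05 or less, and the words rose and fell are kept for genes that passed. The ± after a log2 fold change is its standard error in the fit, with 3 libraries in each group. All 10 genes were tested in both lines, among 13133 genes of SUM1315 and 13012 of MDA-MB-468. Many comparisons share a control group, so their results are given side by side and are not independent.

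The high CDDP dose moved most of the 10 genes in both lines. In SUM1315, 7 rose and 1 fell against untreated cells, where 22.2% of all genes tested rose and 21.7% fell. For MDA-MB-468, 7 rose and none fell, where 13.3% of all genes rose. The low dose gave 5 that rose and 1 that fell in SUM1315 (19.4% of all genes rose and 14.5% fell) and 6 that rose in MDA-MB-468 (10.6% rose). Olaparib alone moved fewer, with 2 up and 2 down in SUM1315 (18.9% of all genes rose and 17.1% fell) and 2 up in MDA-MB-468 (12.4% rose).

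On top of olaparib, the high CDDP dose raised 3 genes and lowered 1 in SUM1315 (4.35% of all genes rose and 4.09% fell) and raised 8 in MDA-MB-468 (10.1% rose). The low dose on top of olaparib raised 6 genes in MDA-MB-468 (2.3% rose). It passed for 0 of 10 by limma and by edgeR in SUM1315 (3.76% of all genes passed), where RB1 and E2F2 had an unadjusted p under 0.05. Seen the other way, olaparib added to CDDP lowered genes in SUM1315: 4 fell with the low dose (10.1% of all genes fell), and 2 fell and 1 rose with the high dose (6.52% fell and 6.32% rose). In MDA-MB-468, olaparib raised 1 gene at the low dose (1.85% rose) and passed for 0 of 10 at the high dose (11.9% passed), where 2 genes had an unadjusted p under 0.05 and edgeR called 1. The high against the low dose passed for 4 genes in MDA-MB-468, all higher (3.62% of all genes were higher). In SUM1315 the same contrast passed for 0 of 10 (10.5% passed), with 6 genes at an unadjusted p under 0.05 and 1 called by edgeR.

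Against olaparib-treated parental cells, 4 of the 10 were higher and 2 lower in OlaR SUM1315 cells (21.6% of all genes were higher and 25.7% lower), and 2 were higher and 2 lower in OlaR MDA-MB-468 cells (23.6% higher and 27.9% lower). Against untreated parental cells the counts were 3 higher and 1 lower in SUM1315 (26% higher and 28.7% lower), and 5 higher and 2 lower in MDA-MB-468 (26% higher and 27.5% lower). With only 10 genes, the 1 or 2 that were lower in these comparisons are not read as departing from the share of all genes. The same holds for the 2 that were higher in OlaR than in olaparib-treated parental MDA-MB-468 cells. The high CDDP dose in OlaR cells raised 3 and lowered 1 in SUM1315 (7.13% of all genes rose and 9.61% fell) and raised 6 in MDA-MB-468 (7.43% rose). The low dose in OlaR cells raised 1 gene in MDA-MB-468 (1.84% rose). It passed for 0 of 10 by limma and edgeR in OlaR SUM1315 cells (1.42% passed), with 5 genes at an unadjusted p under 0.05. The change with high CDDP differed between OlaR and parental cells for 5 of the 10 in SUM1315 (25.8% of all genes passed) and 4 in MDA-MB-468 (12.1% passed), and between olaparib-treated and olaparib-free parental cells for 4 in SUM1315 (21.5% passed) and 2 in MDA-MB-468 (20.2% passed).

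**Figure D1:**
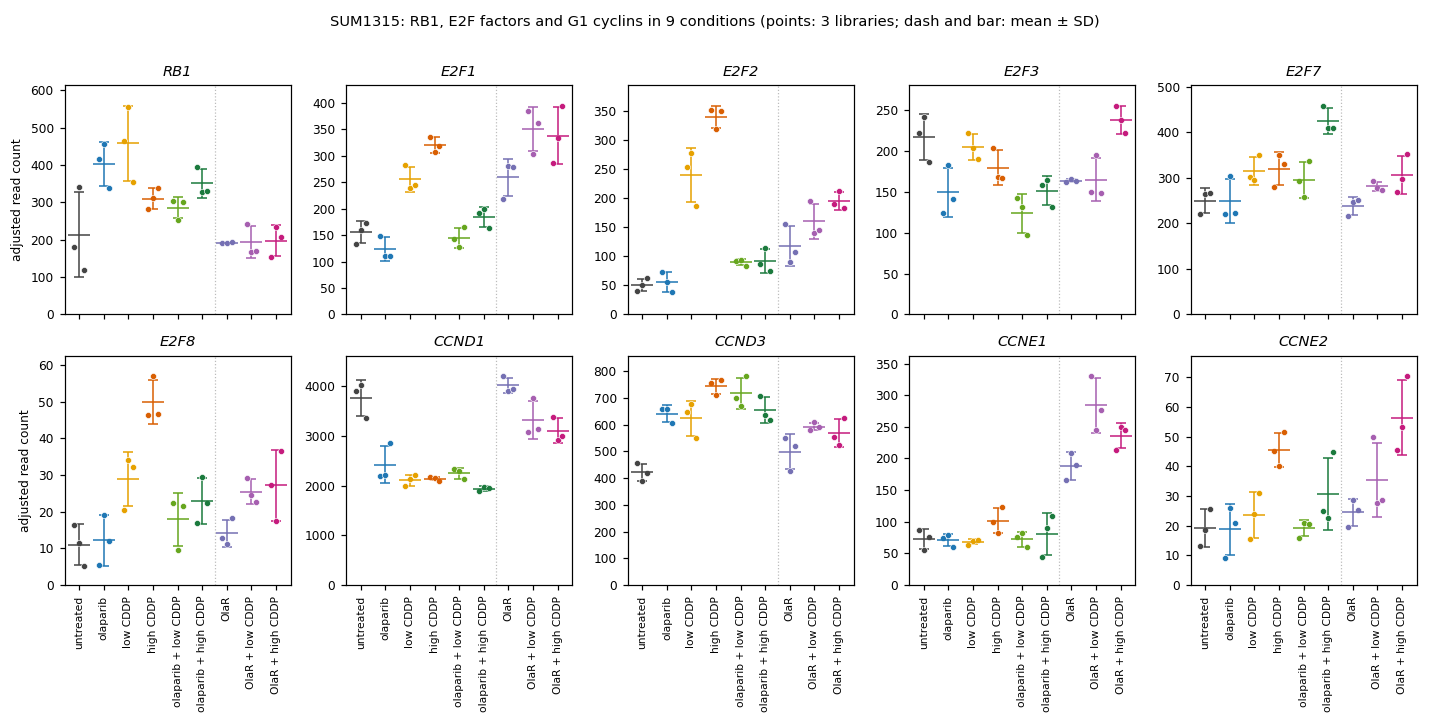
Adjusted read counts of the 10 genes in SUM1315. Each panel is 1 gene with its own linear axis from 0, points are the 3 libraries of a condition, dashes and bars are mean ± SD, and the dotted line parts parental from OlaR cells. E2F2 stood at 319 to 352 with high CDDP alone and at 74.3 to 115 with olaparib and high CDDP, and CCNE1 was 166 to 330 in all OlaR libraries and 43.6 to 124 in all parental ones.

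RB1, on chromosome 13 at 48303744 to 48599436 (GRCh38, plus strand), encodes the pocket protein that restrains E2F. Untreated SUM1315 libraries held 182, 341 and 118, so that their range spanned that of the OlaR libraries. Olaparib-treated libraries held 416, 456 and 339, low CDDP libraries 465, 556 and 355, and high CDDP libraries 282, 311 and 339. The untreated library of replicate 2 overlapped all of the high CDDP libraries and the lowest olaparib library, and the low CDDP libraries lay above every untreated one. RB1 rose with olaparib by a log2 fold change of 1.04 ± 0.22 (adjusted p = 0.000375), with low CDDP by 1.21 ± 0.22 (adjusted p = 6.41e-05) and with high CDDP by 0.67 ± 0.22 (adjusted p = 0.0146). The olaparib value was 0.68 without untreated replicate 3. The high CDDP call was lost without untreated replicate 3 or high CDDP replicate 3 (adjusted p 0.0585 to 0.234), and its log2 fold change was 1.07 without untreated replicate 2.

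With olaparib and low CDDP, RB1 was lower than with low CDDP alone. Libraries with olaparib and low CDDP held 303, 253 and 302, all under the low CDDP libraries, a log2 fold change of -0.66 ± 0.22 (adjusted p = 0.0392). That call was lost without low CDDP replicate 1 or 2 or any 1 library of the combination (adjusted p 0.0625 to 0.208). At the high dose the combination held 396, 327 and 331, and olaparib added to high CDDP did not pass, at 0.18 ± 0.22 (adjusted p = 0.684). OlaR SUM1315 libraries were close together, at 190.2, 193 and 195, and none reached the olaparib-treated parental libraries. RB1 was therefore lower in OlaR than in olaparib-treated parental cells, with a log2 fold change of -1.05 ± 0.22 (adjusted p = 0.000215), while it did not pass against untreated cells at -0.01 ± 0.22 (adjusted p = 0.964). With CDDP the OlaR libraries lay on either side of these, at 244, 168 and 171 with the low and 153, 233 and 208 with the high dose, and neither dose passed (adjusted p = 0.996 and 0.971).

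In MDA-MB-468 RB1 was read from few counts. Untreated libraries held 8.83, 9.91 and 11.9, and OlaR libraries held 21.6, 16.4 and 28.6, with no overlap. The log2 fold change of OlaR against untreated was 1.02 ± 0.38 (adjusted p = 0.0209), and it was lost without OlaR replicate 3 or untreated replicate 1 (adjusted p 0.0659 to 0.106). Against olaparib-treated parental cells, with 8.46, 18.3 and 14.6, the difference of 0.68 ± 0.38 (adjusted p = 0.136) did not pass. No other comparison passed for RB1 in this line. LPAR6 lies inside RB1 on the opposite strand, and whether counting used strand is not given in the sources used here.

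E2F1 and E2F2 rose with CDDP in both lines, and in SUM1315 the rise of E2F2 was the largest of the 10 genes. E2F1, on chromosome 20 at 33675477 to 33686385 (minus strand), is the activator first found as a partner of RB. Untreated SUM1315 libraries held 133, 159 and 174, low CDDP libraries 283, 239 and 245 and high CDDP libraries 336, 306 and 318. Groups did not overlap, and high CDDP stood highest. The log2 fold change was 0.72 ± 0.15 (adjusted p = 0.000371) for the low and 1.05 ± 0.15 (adjusted p = 1.09e-06) for the high dose. Olaparib libraries held 149, 110.4 and 109.9, and their log2 fold change of -0.34 ± 0.15 (adjusted p = 0.0824) did not pass with all libraries but passed without olaparib replicate 1 or untreated replicate 1 (adjusted p 0.0236 to 0.0394).

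Olaparib given with CDDP brought E2F1 in SUM1315 back to near the untreated range, at 142, 127 and 165 with the low dose. With the high dose the libraries held 192, 199 and 164. Against the same CDDP dose alone these were lower, with log2 fold changes of -0.82 ± 0.15 (adjusted p = 0.000295) and -0.79 ± 0.15 (adjusted p = 0.000501). High CDDP still raised E2F1 over olaparib alone, by 0.59 ± 0.15 (adjusted p = 0.0117), a call lost without replicate 2 of either group (adjusted p 0.0673 to 0.070). OlaR SUM1315 libraries held 218, 281 and 278, above every untreated and olaparib-treated parental library, with log2 fold changes of 0.73 ± 0.15 (adjusted p = 0.000129) and 1.07 ± 0.15 (adjusted p = 6.35e-07). With CDDP the OlaR libraries held 384, 304 and 363 at the low and 286, 333 and 394 at the high dose. Every one of these lay above the OlaR libraries without CDDP, yet neither contrast passed (adjusted p = 0.155 and 0.0838).

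In MDA-MB-468, untreated libraries held 394, 419.8 and 419.7, and E2F1 stood at 552, 616 and 607 with low and at 670.3, 724 and 701 with high CDDP. The log2 fold changes of 0.52 ± 0.09 (adjusted p = 1.88e-05) and 0.76 ± 0.09 (adjusted p = 4.28e-09) again came with groups that did not overlap. Libraries with both drugs held 714, 577 and 528 at the low and 613, 680.4 and 783 at the high dose, and olaparib added to high CDDP gave -0.02 ± 0.09 (adjusted p = 0.932). Over olaparib alone, E2F1 rose by 0.41 ± 0.09 (adjusted p = 0.00294) with the low and 0.60 ± 0.09 (adjusted p = 9.01e-07) with the high dose, the former lost without replicate 1 of the combination (adjusted p = 0.0852). OlaR libraries held 535, 441 and 483, higher than untreated by 0.24 ± 0.09 (adjusted p = 0.0258), lost without OlaR replicate 1 or untreated replicate 1 (adjusted p 0.0904 to 0.172). High CDDP raised E2F1 in OlaR cells by 0.32 ± 0.09 (adjusted p = 0.00884), lost without replicate 2 of either group (adjusted p 0.0838 to 0.122).

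E2F2, an activator on chromosome 1 at 23506438 to 23531233 (minus strand), had the widest ratio of highest to lowest condition mean of the set in SUM1315. Its 3 untreated libraries held 40.1, 50.7 and 61.9, and olaparib alone left it at 72.3, 56.2 and 39.0. Low CDDP took it to 254, 278 and 187 and high CDDP to 352, 319 and 350.2, with no overlap between any of these CDDP libraries and the untreated ones. The log2 fold changes were 2.21 ± 0.22 (adjusted p = 9.90e-10) and 2.74 ± 0.22 (adjusted p = 4.01e-12). With olaparib beside CDDP the values were 92.6, 93.7 and 83.9 at the low dose and 87.4, 115 and 74.3 at the high dose. These still lay above every olaparib library, and high CDDP raised E2F2 over olaparib by 0.73 ± 0.22 (adjusted p = 0.0291), whereas the low dose gave 0.72 ± 0.22 (adjusted p = 0.0524). The call at the high dose was lost without olaparib replicate 2 or 3 or without combination replicate 1 or 2 (adjusted p 0.0595 to 0.182), and that at the low dose was gained without olaparib replicate 1 (adjusted p = 0.0365). Olaparib added to low CDDP lowered E2F2 by a log2 fold change of -1.38 ± 0.22 (adjusted p = 3.43e-05), and the rise with high CDDP was smaller beside olaparib than without it, with an interaction of -2.00 ± 0.30 (adjusted p = 9.68e-06).

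OlaR SUM1315 cells held more E2F2 than untreated parental cells. Their libraries were at 156, 90.8 and 107, higher than untreated by 1.18 ± 0.22 (adjusted p = 2.30e-05) and than olaparib-treated parental by 1.07 ± 0.22 (adjusted p = 0.000121). High CDDP took OlaR libraries to 190.4, 212 and 183, a rise of 0.76 ± 0.22 (adjusted p = 0.0138) that was lost without OlaR replicate 2 or 3 or high CDDP replicate 2 (adjusted p 0.0537 to 0.0999). That rise was smaller than the rise in parental cells, with an interaction of -1.98 ± 0.30 (adjusted p = 9.98e-06). Low CDDP in OlaR cells gave 195, 140.0 and 146, which overlapped OlaR alone (adjusted p = 0.326).

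In MDA-MB-468, E2F2 rose in steps: untreated libraries held 284, 271 and 269, olaparib 387, 348 and 375, low CDDP 443, 499 and 469 and high CDDP 738, 827 and 729. Each group was clear of the next. The log2 fold changes against untreated were 0.43 ± 0.08 (adjusted p = 3.86e-05), 0.77 ± 0.08 (adjusted p = 5.77e-11) and 1.47 ± 0.08 (adjusted p = 8.95e-21), and high exceeded low CDDP by 0.70 ± 0.08 (adjusted p = 6.27e-09). Both drugs together gave 639.8, 546 and 516 with the low and 733, 748 and 660.1 with the high dose. Over olaparib alone these were higher by 0.61 ± 0.08 (adjusted p = 1.78e-07) and 0.94 ± 0.08 (adjusted p = 4.99e-14). Olaparib added to low CDDP gave a further 0.27 ± 0.08 (adjusted p = 0.0402), lost without replicate 1 or 3 of low CDDP or replicate 1 or 2 of the combination (adjusted p 0.052 to 0.334), and added to high CDDP -0.10 ± 0.08 (adjusted p = 0.487). OlaR libraries held 723, 753 and 741, close to the high CDDP libraries, and were higher than untreated by 1.42 ± 0.08 (adjusted p = 1.59e-21) and than olaparib-treated parental by 1.00 ± 0.08 (adjusted p = 1.26e-15). From there CDDP added little, with 815, 775 and 908 at the high dose, a log2 fold change of 0.17 ± 0.08 (adjusted p = 0.132), and the interaction of high CDDP with OlaR was -1.30 ± 0.11 (adjusted p = 1.25e-12).

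E2F3, the other activator, on chromosome 6 at 20401879 to 20493714 (plus strand), did not pass with CDDP alone in parental cells of either line. SUM1315 libraries held 222, 242 and 186 untreated, 204, 168 and 167 with high CDDP and 124, 182 and 142 with olaparib, and all olaparib libraries lay below all untreated ones. The log2 fold change was -0.54 ± 0.16 (adjusted p = 0.00848) for olaparib, lost without olaparib replicate 1 (adjusted p = 0.0715), and -0.27 ± 0.16 (adjusted p = 0.185) for high CDDP. Olaparib added to low CDDP lowered it to 143, 132 and 96.9, with a log2 fold change of -0.74 ± 0.16 (adjusted p = 0.00176). In OlaR SUM1315 cells E2F3 stood at 162, 166 and 163, lower than untreated at -0.39 ± 0.16 (adjusted p = 0.0393), lost without any 1 OlaR library or untreated replicate 1 or 2 (adjusted p 0.0668 to 0.153). High CDDP took OlaR libraries to 256, 238 and 222, clear of OlaR alone, a rise of 0.54 ± 0.16 (adjusted p = 0.0207). That call was lost without OlaR replicate 1 or 3 or high CDDP replicate 1 (adjusted p 0.0536 to 0.0866), and the interaction of high CDDP with OlaR was 0.80 ± 0.23 (adjusted p = 0.00929). MDA-MB-468 libraries stayed between 452 and 683 in all 9 conditions. The only comparison that passed there was high CDDP added to olaparib, 0.25 ± 0.08 (adjusted p = 0.016), lost without olaparib replicate 2 or combination replicate 3 (adjusted p 0.0801 to 0.0822).

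**Figure D2:**
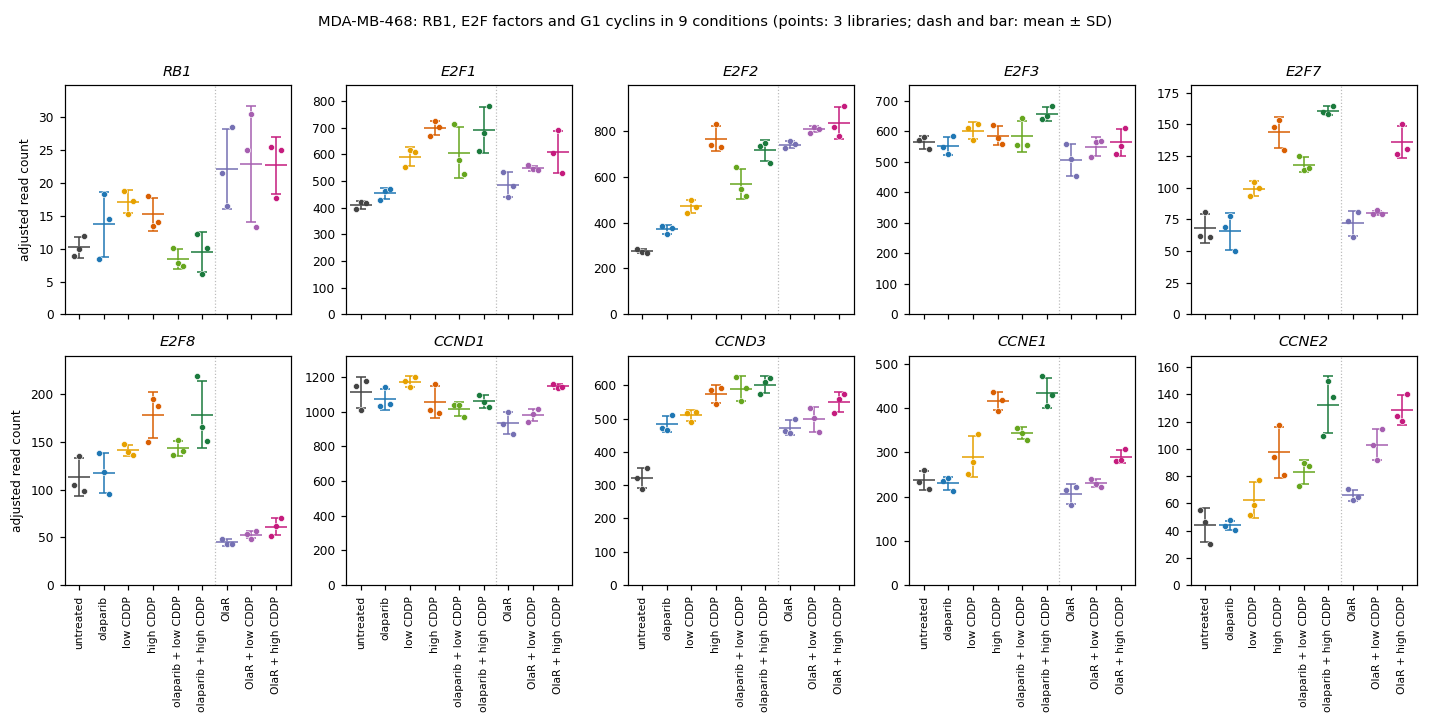
Adjusted read counts of the 10 genes in MDA-MB-468, drawn as for SUM1315, with 3 libraries a condition and mean ± SD. E2F8 was 42.6 to 69.8 in all OlaR libraries and 95.6 to 219 in all parental ones, and RB1 stayed at 30.6 or less.

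The repressors E2F7 and E2F8 both rose with high CDDP in both lines, by unlike amounts. E2F7 lies on chromosome 12 at 77021248 to 77065569 (minus strand). In MDA-MB-468 it stood at 62.1, 80.9 and 60.8 untreated, 93.1, 105 and 99.6 with low CDDP, 148, 153 and 130.1 with high CDDP and 159, 158 and 165 with olaparib and high CDDP. High CDDP raised it by 1.08 ± 0.16 (adjusted p = 6.86e-07), and by 1.30 ± 0.16 (adjusted p = 5.85e-09) over olaparib, and untreated libraries overlapped none of these. The low dose gave 0.55 ± 0.16 (adjusted p = 0.0102) against untreated, lost without untreated replicate 1 or 3 (adjusted p 0.0508 to 0.0607), and 0.86 ± 0.16 (adjusted p = 0.000228) over olaparib. High exceeded low CDDP by 0.53 ± 0.16 (adjusted p = 0.0324), lost without any 1 low CDDP library or high CDDP replicate 1 or 2 (adjusted p 0.0534 to 0.129). OlaR libraries held 74.0, 60.8 and 80.7, close to the untreated range, and high CDDP took them to 127, 150.3 and 131, a rise of 0.92 ± 0.16 (adjusted p = 2.21e-05).

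In SUM1315 the E2F7 change with high CDDP alone was small. Untreated libraries held 219.7, 264 and 268 and high CDDP libraries 279.6, 349.5 and 332, a log2 fold change of 0.35 ± 0.14 (adjusted p = 0.0352) that was lost without untreated replicate 1 or high CDDP replicate 2 or 3 (adjusted p 0.099 to 0.173). Libraries with olaparib and high CDDP held 459, 409 and 409.5, above every other SUM1315 library. They were higher than olaparib alone by 0.78 ± 0.14 (adjusted p = 0.000249) and than high CDDP alone by 0.41 ± 0.14 (adjusted p = 0.040), the latter lost without high CDDP replicate 1 or 3 or any 1 library of the combination (adjusted p 0.0697 to 0.204). E2F7 was thus the 1 gene of the set that olaparib moved up on top of high CDDP in this line. OlaR against parental cells did not pass in either line.

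E2F8, on chromosome 11 at 19224063 to 19241620 (minus strand), was low in SUM1315, with 16.4, 11.4 and 5.25 untreated, on 5 to 18 reads. Low CDDP libraries held 20.5, 34.1 and 32.3 and high CDDP libraries 46.3, 56.9 and 46.7, without overlap with the untreated ones. The log2 fold changes were 1.41 ± 0.42 (adjusted p = 0.0088) and 2.20 ± 0.42 (adjusted p = 6.16e-05), and the low-dose call was lost without untreated replicate 3 (adjusted p = 0.0965). OlaR SUM1315 libraries held 12.8, 11.2 and 18.2, and the difference from olaparib-treated parental cells of 0.31 ± 0.42 (adjusted p = 0.567) did not pass. In MDA-MB-468 the pattern was another one. Untreated libraries held 105, 135 and 98.5, high CDDP libraries 150.3, 195 and 188, and OlaR libraries only 48.8, 43.1 and 42.6. High CDDP raised E2F8 by 0.65 ± 0.17 (adjusted p = 0.00212), and by 0.60 ± 0.17 (adjusted p = 0.00506) over olaparib, the latter lost without olaparib replicate 3 or combination replicate 1 (adjusted p 0.0637 to 0.0752). OlaR cells had less than olaparib-treated parental cells, with a log2 fold change of -1.36 ± 0.17 (adjusted p = 8.55e-10), and less than untreated cells, with -1.30 ± 0.17 (adjusted p = 2.18e-09). With high CDDP the OlaR libraries held 51.8, 61.8 and 69.8, still below every parental library, and the contrast with OlaR alone of 0.43 ± 0.17 (adjusted p = 0.0585) passed only without high CDDP replicate 1 (adjusted p = 0.0326).

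The D cyclins went opposite ways in SUM1315 under treatment. CCND1, on chromosome 11 at 69641156 to 69654474 (plus strand), encodes cyclin D1, which activates CDK4 and CDK6. Untreated SUM1315 libraries held 3909, 4014 and 3353, and olaparib, low CDDP and high CDDP libraries held 2199, 2211 and 2850.0, 1989, 2122 and 2205 and 2177, 2143 and 2101. All 9 treated libraries lay below the untreated ones. CCND1 fell, with log2 fold changes of -0.64 ± 0.10 (adjusted p = 2.31e-06) with olaparib, -0.83 ± 0.10 (adjusted p = 2.79e-08) with low CDDP and -0.81 ± 0.10 (adjusted p = 2.36e-08) with high CDDP. Both drugs together, at 2331, 2291 and 2125 and 1888, 1976 and 1951, lay in or just below the range of the single drugs. High CDDP over olaparib gave -0.31 ± 0.10 (adjusted p = 0.0379), lost without olaparib replicate 3 or any 1 library of the combination (adjusted p 0.084 to 0.249).

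OlaR SUM1315 cells, kept in olaparib, held CCND1 near the untreated level, 4193, 3906 and 3931, and not at that of parental cells under olaparib. The log2 fold change was 0.74 ± 0.10 (adjusted p = 1.14e-07) against olaparib-treated and 0.10 ± 0.10 (adjusted p = 0.404) against untreated parental cells. High CDDP lowered CCND1 in OlaR cells to 3384, 2918 and 2991, with a log2 fold change of -0.37 ± 0.10 (adjusted p = 0.00618), a smaller fall than in parental cells with an interaction of 0.43 ± 0.13 (adjusted p = 0.0167), lost without OlaR high CDDP replicate 1 (adjusted p = 0.0554). In MDA-MB-468, CCND1 stayed between 874 and 1202 in all libraries. Untreated libraries held 1147, 1012 and 1178, and neither olaparib nor CDDP passed in parental cells. OlaR libraries, at 927, 1002 and 874, were lower than untreated ones, at -0.25 ± 0.07 (adjusted p = 0.00128), and than olaparib-treated ones, at -0.20 ± 0.07 (adjusted p = 0.00995), the latter lost without OlaR replicate 3 or olaparib replicate 2 (adjusted p 0.0806 to 0.0828). High CDDP brought OlaR libraries to 1163, 1136 and 1141, a rise of 0.30 ± 0.07 (adjusted p = 0.000742).

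CCND3, on chromosome 6 at 41934934 to 42050357 (minus strand), encodes cyclin D3, with the same CDK partners, and rose in both lines. Untreated SUM1315 libraries held 456, 389 and 419, against 659.7, 659 and 606 with olaparib and 754, 711 and 766 with high CDDP. Untreated MDA-MB-468 libraries held 322, 289.6 and 351, against 472, 467 and 512 with olaparib and 587, 544 and 591 with high CDDP. Untreated libraries lay below all of these in each line. Olaparib gave log2 fold changes of 0.61 ± 0.10 (adjusted p = 2.51e-05) and 0.59 ± 0.08 (adjusted p = 6.84e-08), low CDDP 0.56 ± 0.10 (adjusted p = 7.85e-05) and 0.67 ± 0.08 (adjusted p = 3.87e-09), and high CDDP 0.82 ± 0.10 (adjusted p = 1.12e-07) and 0.84 ± 0.08 (adjusted p = 4.84e-12), SUM1315 first.

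The change of CCND3 with high CDDP was smaller with olaparib than without it in both lines. In SUM1315 high CDDP over olaparib did not pass, at 0.03 ± 0.10 (adjusted p = 0.926), and the interaction of the drugs was -0.80 ± 0.15 (adjusted p = 0.000174). In MDA-MB-468 it gave 0.31 ± 0.08 (adjusted p = 0.00217), with an interaction of -0.53 ± 0.11 (adjusted p = 0.0004). OlaR SUM1315 libraries held 550.5, 427 and 519.8, lower than olaparib-treated parental cells at -0.37 ± 0.10 (adjusted p = 0.0044), lost without OlaR replicate 2 (adjusted p = 0.0595). OlaR MDA-MB-468 libraries held 464, 456 and 499, close to the olaparib-treated range and higher than untreated by 0.56 ± 0.08 (adjusted p = 3.76e-08). High CDDP in OlaR cells gave 0.19 ± 0.10 (adjusted p = 0.232) in SUM1315 and 0.22 ± 0.08 (adjusted p = 0.0483) in MDA-MB-468, the latter lost without OlaR replicate 1 or 2 or high CDDP replicate 2 or 3 (adjusted p 0.124 to 0.17).

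The E cyclins activate CDK2 at the entry to S phase. CCNE1, on chromosome 19 at 29811991 to 29824312 (plus strand), parted all OlaR from all parental SUM1315 libraries. Its values were 87.6, 56.0 and 75.5 untreated, 73.9, 78.7 and 60.0 with olaparib and 99.7, 82.8 and 124 with high CDDP. OlaR libraries held 166, 209 and 189.9, OlaR with low CDDP 329.7, 245 and 277 and OlaR with high CDDP 213, 249 and 245, and all 9 OlaR libraries exceeded all 18 parental ones. The log2 fold change of OlaR was 1.40 ± 0.23 (adjusted p = 7.23e-06) against olaparib-treated and 1.37 ± 0.23 (adjusted p = 6.62e-06) against untreated parental cells. CDDP in OlaR cells gave 0.59 ± 0.23 (adjusted p = 0.218) at the low and 0.33 ± 0.23 (adjusted p = 0.369) at the high dose, and high CDDP in parental cells 0.48 ± 0.23 (adjusted p = 0.0897), none of which passed.

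For CCNE1 in MDA-MB-468 the calls lay with CDDP and not with OlaR. Untreated libraries held 233, 260.3 and 218, OlaR libraries 215, 181 and 223, and high CDDP libraries 436, 395 and 418. OlaR did not pass against untreated (-0.20 ± 0.10 (adjusted p = 0.0893)) or olaparib-treated cells (-0.16 ± 0.10 (adjusted p = 0.184)). High CDDP raised CCNE1 by 0.81 ± 0.10 (adjusted p = 1.53e-08) in parental cells, by 0.91 ± 0.10 (adjusted p = 4.44e-10) over olaparib and by 0.49 ± 0.10 (adjusted p = 0.000276) in OlaR cells. High exceeded low CDDP by 0.53 ± 0.10 (adjusted p = 0.000336). The low dose gave 0.28 ± 0.10 (adjusted p = 0.0416), with overlap and lost without low CDDP replicate 2 or 3 or untreated replicate 1 or 3 (adjusted p 0.0602 to 0.351), and 0.57 ± 0.10 (adjusted p = 0.000117) over olaparib.

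CCNE2, on chromosome 8 at 94879770 to 94896678 (minus strand), rose with high CDDP alone in parental cells and with high CDDP in OlaR cells of both lines. SUM1315 libraries held 13.2, 18.6 and 25.8 untreated, 45.2, 40.1 and 51.5 with high CDDP, 19.6, 28.5 and 25.4 as OlaR and 45.5, 53.3 and 70.2 as OlaR with high CDDP. Both pairs were clear of each other. The rise was 1.25 ± 0.36 (adjusted p = 0.00528) in parental and 1.16 ± 0.36 (adjusted p = 0.0234) in OlaR cells, the latter lost without OlaR replicate 1 or 3 or high CDDP replicate 3 (adjusted p 0.051 to 0.101). Over olaparib, high CDDP gave 0.74 ± 0.36 (adjusted p = 0.219), which did not pass. CCNE2 values in SUM1315 rest on 10 to 58 reads per library.

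MDA-MB-468 libraries held 54.8, 46.6 and 30.1 untreated, 94.1, 118 and 80.7 with high CDDP, 70.3, 62.8 and 64.4 as OlaR and 124, 120.4 and 141 as OlaR with high CDDP. The rise was 1.16 ± 0.19 (adjusted p = 5.86e-06) in parental cells, 1.56 ± 0.19 (adjusted p = 6.74e-09) over olaparib and 0.95 ± 0.19 (adjusted p = 0.000212) in OlaR cells. CCNE2 was also higher in OlaR than in olaparib-treated cells by 0.57 ± 0.19 (adjusted p = 0.0112) and than in untreated cells by 0.62 ± 0.19 (adjusted p = 0.00617), the latter lost without untreated replicate 3 (adjusted p = 0.123). Low CDDP gave 0.90 ± 0.19 (adjusted p = 0.0017) over olaparib. Its calls against untreated, 0.52 ± 0.19 (adjusted p = 0.049), and in OlaR cells, 0.63 ± 0.19 (adjusted p = 0.0425), were the weakest of the gene: the former was lost without low CDDP replicate 2 or 3 or untreated replicate 2 or 3 (adjusted p 0.0569 to 0.397), the latter without any 1 of its 6 libraries (adjusted p 0.060 to 0.168). High exceeded low CDDP by 0.64 ± 0.19 (adjusted p = 0.0311), lost without low CDDP replicate 1 or 2 or high CDDP replicate 1 or 2 (adjusted p 0.0679 to 0.209). CCNE2, CCND1 and E2F8 each have a gene on the opposite strand within the last 1000 bases (INTS8, LTO1 and CSRP3-AS1), whose reads cannot be told apart from theirs if counting ignored strand.

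**Figure D3:**
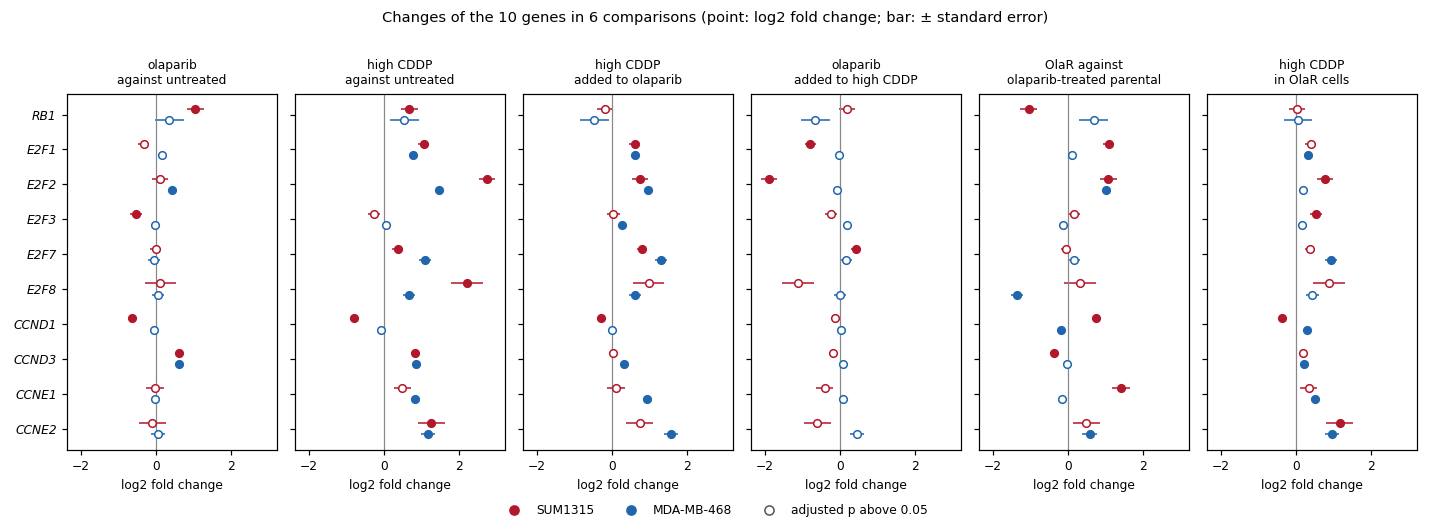
Log2 fold changes of the 10 genes in 6 comparisons, SUM1315 in red and MDA-MB-468 in blue. Bars are ± standard error of the limma fit, and open points had an adjusted p above 0.05. E2F2 and E2F8 lie farthest to the right for high CDDP in SUM1315, at 2.74 and 2.20, and RB1, E2F3, E2F7, E2F8, CCND1 and CCNE1 lie on opposite sides of 0 in the 2 lines for OlaR against olaparib-treated parental cells. Of these, CCND1 alone passed in both lines.

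Differences between the lines were tested as SUM1315 minus MDA-MB-468 in a fit of all 54 libraries with 14460 genes, at doses that differed. For high CDDP, 4 of the 10 passed (27.5% of all genes passed). E2F2 and E2F8 rose more in SUM1315, by 1.27 ± 0.23 (adjusted p = 3.43e-05) and 1.55 ± 0.44 (adjusted p = 0.00641). E2F7 rose less there, with a difference of -0.73 ± 0.20 (adjusted p = 0.00409). CCND1 fell in SUM1315 and did not pass in MDA-MB-468, a difference of -0.73 ± 0.11 (adjusted p = 2.38e-06). CCND3 differed by -0.02 ± 0.12 (adjusted p = 0.93) and CCNE2 by 0.09 ± 0.40 (adjusted p = 0.905), neither of which passed. For olaparib, E2F3 and CCND1 passed (19.9% of all genes passed), with differences of -0.51 ± 0.17 (adjusted p = 0.0295) and -0.59 ± 0.11 (adjusted p = 0.000143). The E2F3 difference was lost without olaparib replicate 1 or 3 or untreated replicate 1 or 2 of SUM1315, or without olaparib or untreated replicate 3 of MDA-MB-468 (adjusted p 0.0548 to 0.124).

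For OlaR against olaparib-treated parental cells, 6 of the 10 differed between the lines (41.7% of all genes passed). The log2 fold change, not the level, was higher in SUM1315 for CCNE1 by 1.56 ± 0.26 (adjusted p = 2.84e-06), E2F8 by 1.67 ± 0.44 (adjusted p = 0.00192), E2F1 by 0.98 ± 0.18 (adjusted p = 1.98e-05) and CCND1 by 0.94 ± 0.11 (adjusted p = 4.58e-09). For E2F8 the change was -1.36 in MDA-MB-468, and that of SUM1315, 0.31, did not pass. The log2 fold change was lower in SUM1315 for RB1, at -1.73 ± 0.39 (adjusted p = 0.000346), and CCND3, at -0.34 ± 0.12 (adjusted p = 0.0262). The MDA-MB-468 changes of RB1 (0.68, from 25 reads or fewer per library), E2F1 (0.09), CCNE1 (-0.16) and CCND3 (-0.03) did not pass. The CCND3 difference was lost without OlaR replicate 2 or olaparib replicate 1 or 2 of SUM1315, or without OlaR replicate 3 or olaparib replicate 1 or 2 of MDA-MB-468 (adjusted p 0.0527 to 0.143). E2F2, which rose in both lines, differed by 0.07 ± 0.23 (adjusted p = 0.827). Olaparib added to high CDDP differed for E2F1 by -0.77 ± 0.18 (adjusted p = 0.00339) and E2F2 by -1.80 ± 0.23 (adjusted p = 4.98e-07) (9.05% passed), and high CDDP in OlaR cells for CCND1 by -0.67 ± 0.11 (adjusted p = 0.000386) (5.44% passed). High CDDP added to olaparib passed for 0 of the 10 by limma and by edgeR (1.87% of all genes passed), with 5 at an unadjusted p under 0.05, and the widest differences there were CCNE2 at -0.82 ± 0.40 (adjusted p = 0.409) and CCNE1 at -0.82 ± 0.26 (adjusted p = 0.0994), the latter passing only without replicate 3 of the combination in SUM1315 (adjusted p = 0.0146).

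The wider circuit was described with 3 lists: 28 genes of the RB pathway outside the set, 30 G1/S targets of E2F such as the MCM helicase genes, and 15 G2/M genes of mitosis. With high CDDP in SUM1315, 28 of 29 G1/S targets tested rose and none fell, where 22.2% of all genes rose and 21.7% fell, with a median log2 fold change of 1.42, against -0.0031 over all genes tested. The largest rises were CDC45 (from 41.4 ± 9.21 to 310.1 ± 34.5, 2.89 ± 0.17 (adjusted p = 7.05e-15)), a helicase component, TK1 (2.50), which salvages thymidine, and RRM2 (2.48), which makes deoxynucleotides. Of 15 G2/M genes, 12 rose and 1, the mitotic kinase PLK1 (-0.59), fell, with a median of 0.81. Within the RB pathway list 13 of 28 rose and 4 fell, with a median of 0.27. Those with the largest rises were MYBL2 (2.61), which drives late S phase genes, CDC25A (1.63), which activates CDK2, and the CDK inhibitor CDKN2C (1.53), and those with the largest falls were CCND2 (-1.12), FBXW7 (-0.90), a ligase part that degrades cyclin E, and RBL2 (-0.81), a pocket protein.

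In MDA-MB-468, 27 of 30 G1/S targets rose with high CDDP and none fell, where 13.3% of all genes rose and 11.8% fell, with a median of 0.76 against 0.0086 over all genes. RRM2 (1.56), TK1 (1.35) and CDT1 (1.17), a licensing factor, led. The G2/M list went the other way, with 10 lower and 2 higher and a median of -0.47. CENPE (-1.24) and KIF20A (-1.14), both motor proteins of mitosis, and PLK1 (-0.73) fell most, while CDK1 (0.43) and AURKB (0.69) rose. In the RB pathway list, with a median of 0.17, 10 of 27 tested rose and 3 fell, with CDC25A (1.11), CDKN2C (1.00) and CDKN1A (0.92), the p21 gene, at the top and CDK6 (-0.45), MYC (-0.39) and RBBP4 (-0.28) lowest.

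Olaparib alone gave a different balance. In SUM1315, 14 of 15 G2/M genes rose, with a median of 1.13, and 13 of 29 G1/S targets rose and 3 fell, with a median of 0.35 against -0.0026 over all genes, of which 18.9% rose and 17.1% fell. KIF20A (1.96), CENPA (1.80), a centromere histone, and CDC20 (1.45), which starts anaphase, rose most. MDA-MB-468 gave 12 of 15 G2/M genes higher, with a median of 0.54, and 12 of 30 G1/S targets higher and 4 lower, with a median of 0.18 against 0.0115 over all genes, of which 12.4% rose and 9.11% fell. High CDDP on top of olaparib then raised 16 of 29 G1/S targets in SUM1315, where 4.35% of all genes rose, and 23 of 30 in MDA-MB-468, where 10.1% rose, with DTL, a ligase adaptor of S phase, at 1.66 and 1.63. On the G2/M list it lowered 6 of 15 in SUM1315, where 4.09% of all genes fell, and 15 of 15 in MDA-MB-468, where 13.1% fell, with KIF20A at -1.56 and -1.83.

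OlaR SUM1315 cells, against olaparib-treated parental cells, had 24 of 29 G1/S targets higher and none lower (median 0.84, against -0.0451 over all genes), and 2 of 15 G2/M genes higher and 6 lower (median -0.25). Of all genes, 21.6% were higher and 25.7% lower. MCM4 (1.40) and CDC6 (1.40), both for origin licensing, were among the largest. On the RB pathway list 7 of 28 were higher and 6 lower (median 0.07), shares near those of all genes. RBL1, a pocket protein related to RB, was higher (1.33), and CCND2, the remaining D cyclin, fell from 113 ± 36.1 to 9.26 ± 1.42 (-3.43 ± 0.29 (adjusted p = 1.81e-11)). CDKN2A, which encodes the CDK4 and CDK6 inhibitor p16, had 334 reads over the 18 parental libraries and 0 over the 9 OlaR libraries. With 3 reads over the 9 libraries as the floor it was at least 35.9-fold lower. CDKN2B, the neighbouring p15 inhibitor gene, had 142 reads against 0, at least 15.2-fold lower. Against untreated parental cells the G2/M list went the other way, with 11 of 15 genes higher and 3 lower (median 0.91). In that comparison 27 of 29 G1/S targets were higher and none lower (median 1.19), where 26% of all genes were higher and 28.7% lower.

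OlaR MDA-MB-468 cells, against olaparib-treated parental cells, had 17 of 30 G1/S targets higher and 5 lower (median 0.34, against -0.0303 over all genes). In this comparison 13 of 15 G2/M genes were lower (median -0.55). Of all genes, 23.6% were higher and 27.9% lower. Of 27 genes tested on the RB pathway list, 11 were higher and 11 lower (median 0.07). CDK6, a partner of cyclin D, rose from 174 ± 24.7 to 899 ± 67.8 (2.37 ± 0.11 (adjusted p = 5.86e-25)), E2F5 was 1.75 and RBL1 1.55, while LIN37 (-0.91), CDKN2C (-0.89) and LIN9 (-0.81) fell. CDKN2A stayed at 1450 to 1637 in these OlaR libraries and at 1228 to 1636 in parental ones. Against untreated parental cells, 2 of 15 G2/M genes were higher and 2 lower (median -0.03) in OlaR MDA-MB-468 cells. There 21 of 30 G1/S targets were higher and 3 lower (median 0.50), where 26% of all genes were higher and 27.5% lower. High CDDP in OlaR cells raised 12 of 29 G1/S targets in SUM1315 and 20 of 30 in MDA-MB-468, where 7.13% and 7.43% of all genes rose. It lowered 4 and 12 of 15 G2/M genes, where 9.61% and 11.2% of all genes fell.

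**Figure D4:**
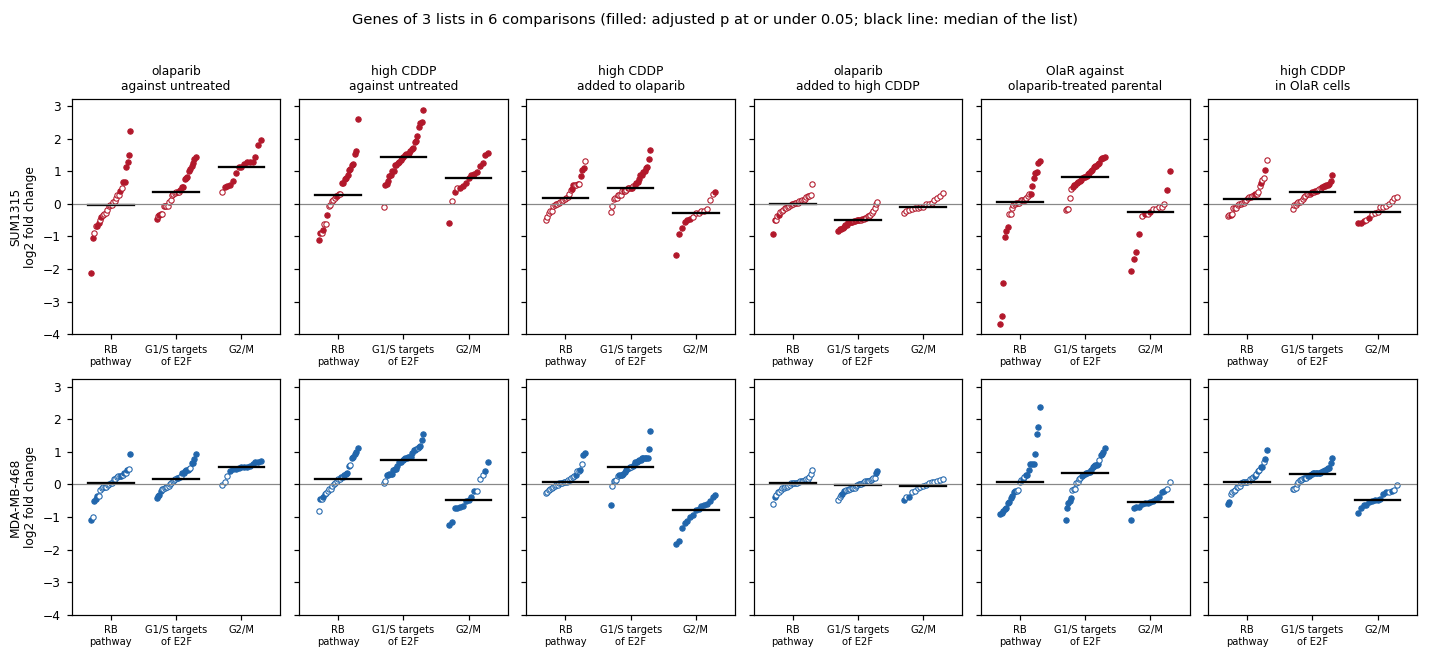
Log2 fold changes of the genes of 3 lists in 6 comparisons, SUM1315 above in red and MDA-MB-468 below in blue. Each point is 1 gene, sorted by value, open points had an adjusted p above 0.05, and the black line is the median. G1/S targets lie above 0 for high CDDP in both lines (medians 1.42 and 0.76), whereas G2/M genes lie mostly above 0 in SUM1315 and mostly below 0 in MDA-MB-468 (medians 0.81 and -0.47). The lowest RB pathway points in OlaR SUM1315 cells include CDKN2A and CDKN2B, which had no OlaR reads, so that their plotted values depend on the added 1.

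Genes most like each member were ranked by the lower of the 2 lines' Pearson correlations over 9 condition means, among 8292 or 8293 genes. These means share libraries, depth and treatments, and the coefficients are descriptions. Compared genes had a mean value of at least 50 in each line, a limit not applied to the 10 genes themselves. RB1 in MDA-MB-468 (6 to 25 reads per library), and E2F8 (5 to 62) and CCNE2 (10 to 58) in SUM1315, were low. Their coefficients in those lines therefore carry more counting noise. E2F1 was most like CDC6 (0.96 in SUM1315 and 0.91 in MDA-MB-468), which loads the replicative helicase. E2F2 was most like RAD51AP1 (0.92 and 0.92), E2F8 like CHEK1 (0.94 and 0.99), the S phase checkpoint kinase, and CCNE2 like FAM111B (0.93 and 0.92), followed by CLSPN (0.90 and 0.94), the CHEK1 adaptor. CCNE1 was most like DUSP3 (0.93 and 0.97), CCND3 like BCL7C (0.91 and 0.89) and RB1 like RAP2B (0.95 and 0.91). The closest genes were less alike for E2F3 (MRPL46, 0.81 and 0.86), E2F7 (CEP85, 0.81 and 0.87) and CCND1 (ATG14, 0.77 and 0.86).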

How the data were processed

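RNA of 54 libraries (18 conditions, 3 libraries each) was measured with the QuantSeq 3′ mRNA-seq FWD kit. The authors aligned reads to hg38, and the submitters' processing notes name CASAVA 1.8.2, FastQC, STAR, HTSeq and edgeR, with no further settings. The authors deposited adjusted read counts (unit: signal), which are counts scaled by edgeR to a common library size. Whole reads were recovered for 100% of 1483380 values. Adjusting these whole reads again gave each deposited value back within a relative 1e-06. Other deposited columns hold the authors' log2 fold changes and p-values and were not used.

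Groups came from the sample titles. limma 3.58.1 (R 4.3.3) was fitted with an intensity trend to log2(value + 1) over 27 libraries of a line, or 54 for line differences, for genes that reached a value of 10 in 3 or more libraries, with Benjamini-Hochberg adjustment over all genes tested. This log-scale fit was also run on simulated counts, drawn with the same dispersion for all genes. That run does not show how the fit performs on these libraries. edgeR 4.0.16 quasi-likelihood on the recovered reads, other pseudocounts, median-of-ratios scaling, no filter, only the groups compared, a replicate block and leaving out each library were alternatives. Those for line differences were added after the data were seen.

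The 10 genes and the lists were chosen with earlier results of these data known. Named were all 10 genes, up to 3 risers and 3 fallers per list by absolute log2 fold change among genes that passed, and the closest genes by correlation. The labels do not say whether libraries of a condition came from separate cultures, so p-values measure only the spread between these libraries. Count floors cover counting error only. The labels write mM for doses that the titles and methods give in µM, and 1 text gives 2 µM for the high CDDP dose of MDA-MB-468, where the titles give 2.5 µM.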

Additional observations from a re-analysis of the deposited data

Results flagged for a closer look

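These values were set apart because the same contrast differed between 2 groups of cells by a test of the difference itself, in limma with Benjamini-Hochberg adjustment over all genes tested. No explanation was tested for any of them.

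The log2 change with high CDDP differed between OlaR and parental SUM1315 cells by -0.67 for E2F1, -1.98 for E2F2, 0.80 for E2F3, 0.43 for CCND1 and -0.63 for CCND3 (25.8% of all genes passed this test). The E2F1 difference was lost without OlaR replicate 2 or 3, OlaR high CDDP replicate 1 or untreated replicate 1 (adjusted p 0.0541 to 0.0716), and that of CCND1 without OlaR high CDDP replicate 1 (adjusted p = 0.0554). In MDA-MB-468 the same difference was -0.44 for E2F1, -1.30 for E2F2, 0.37 for CCND1 and -0.62 for CCND3 (12.1% of all genes passed), and E2F1 was lost without OlaR replicate 1 or OlaR high CDDP replicate 3 (adjusted p 0.0702 to 0.0874). E2F1, E2F2, CCND1 and CCND3 had the same sign in both lines. For CCND1 the changes behind that sign were unlike. In SUM1315 it fell with high CDDP in parental (-0.81) and, less, in OlaR cells (-0.37). In MDA-MB-468 it did not pass in parental cells (-0.07) and rose in OlaR cells (0.30).

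The change with high CDDP differed between olaparib-treated and olaparib-free parental SUM1315 cells by -0.86 for RB1, -2.00 for E2F2, 0.50 for CCND1 and -0.80 for CCND3 (21.5% of all genes passed). The RB1 difference was lost without any 1 high CDDP library, olaparib replicate 1 or 2, combination replicate 2 or 3, or untreated replicate 1 or 3 (adjusted p 0.0526 to 0.212). In MDA-MB-468 it was -0.53 for E2F2 and -0.53 for CCND3 (20.2% of all genes passed).

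Between the lines, as SUM1315 minus MDA-MB-468 at unequal doses, olaparib differed by -0.51 for E2F3 and -0.59 for CCND1. High CDDP differed by 1.27 for E2F2, -0.73 for E2F7, 1.55 for E2F8 and -0.73 for CCND1. Olaparib added to high CDDP differed by -0.77 for E2F1 and -1.80 for E2F2. OlaR against olaparib-treated parental cells differed by -1.73 for RB1, 0.98 for E2F1, 1.67 for E2F8, 0.94 for CCND1, -0.34 for CCND3 and 1.56 for CCNE1. High CDDP in OlaR cells differed by -0.67 for CCND1. The differences of E2F3 for olaparib and of CCND3 for OlaR were each lost without any 1 of 6 libraries, with adjusted p of 0.0548 to 0.124 and 0.0527 to 0.143.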

How the results depend on the processing

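No log2 fold change of the 10 genes that had passed changed sign under any alternative run. Of 340 values, the call was unchanged for 340 with a pseudocount of 0.5, 338 with 5, 329 with edgeR, 326 with no filter, 321 with only the groups compared and 337 with the replicate block, and for 274 of 280 with median-of-ratios scaling. Counts of the 10 genes that passed moved by over 1.5 times, or to or from 0, as follows, and the cause was not tested. Smaller moves included 6 to 4 for low CDDP in MDA-MB-468 (no filter, and only the groups compared) and 8 to 6 for high CDDP in SUM1315 (only the groups compared). High against low CDDP in SUM1315 went from 0 to 2 with only the groups compared and to 1 with edgeR. Low CDDP added to olaparib in SUM1315 went from 0 to 1 with median-of-ratios scaling, with only the groups compared and with the replicate block. High CDDP added to olaparib in SUM1315 went from 4 to 2 with no filter, and low CDDP in OlaR SUM1315 from 0 to 1 with only the groups compared. Olaparib added to low CDDP in MDA-MB-468 went from 1 to 0 with no filter and with only the groups compared, and to 2 with edgeR, and olaparib added to high CDDP from 0 to 1 with edgeR. Low CDDP in OlaR MDA-MB-468 went from 1 to 0 with no filter, the replicate block and edgeR. The line difference for olaparib went from 2 to 1 with only the groups compared. Over all genes, low CDDP in OlaR cells gave 187 calls by limma and 89 by edgeR in SUM1315, and 619 and 373 in MDA-MB-468.

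Leaving out 1 library at a time kept the call for 2497 of 2640 values. For SUM1315 the counts were 4 to 5 for olaparib, 5 to 6 for low and 6 to 8 for high CDDP, 0 to 2 for high against low, 0 to 1 for low and 1 to 4 for high CDDP added to olaparib, 3 to 4 and 2 to 3 for olaparib added to low and high CDDP, 5 to 6 for OlaR against olaparib-treated and 3 to 4 against untreated cells, 0 for low and 1 to 3 for high CDDP in OlaR cells, 3 to 6 for the interaction with OlaR and 3 to 4 with olaparib. For MDA-MB-468, in the same order, they were 2, 3 to 6, 7, 2 to 4, 4 to 6, 7 to 8, 0 to 1, 0, 3 to 4, 5 to 7, 0, 4 to 7, 3 to 4 and 2. The line differences gave 1 to 2 for olaparib, 4 for high CDDP, 0 to 1 for high CDDP added to olaparib, 2 to 3 for olaparib added to high CDDP, 5 to 6 for OlaR and 1 to 2 for high CDDP in OlaR cells. Each of the 6 libraries of low CDDP in OlaR MDA-MB-468 cells ended its single call.

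The replicate numbers were not shown to pair libraries: same-numbered libraries correlated between -0.0977 and 0.1635 in SUM1315 and between -0.0468 and 0.0426 in MDA-MB-468, over 108 pairs each. With 3 libraries a group, RB1 in MDA-MB-468 (6 to 25 reads) and E2F8 in SUM1315 (5 to 62 reads) were the least precise.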

Other observations

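The genes beside CDKN2A and CDKN2B on chromosome 9 were looked at after the 0 reads of both in OlaR SUM1315 cells had been seen. Of 12 genes from FOCAD (GRCh38, 20658309 to 20995955) to LINC01239 (22646200 to 22824213) with over 20 reads in all libraries together, 11 had no read in any of the 9 OlaR SUM1315 libraries. KLHL9, which encodes a ubiquitin ligase adaptor, was the exception, with 6 reads in OlaR against 4036 in parental libraries. In total these 12 genes had 5566 reads in parental and 6 in OlaR SUM1315 libraries. FOCAD had 648 reads in parental and 0 in OlaR libraries, MIR31HG 178 and 0, LINC01239 160 and 0, and MTAP, which salvages methionine, 13 and 0. The limit of 20 reads counted both lines together. FOCAD-AS1 (7), HACD4 (7), CDKN2B-AS1 (5) and DMRTA1 (13), like MTAP, had few reads in parental SUM1315 libraries. For these genes, 0 reads in the OlaR libraries says little. Both flanking genes were read in OlaR cells, MLLT3 (20341669 to 20622499) with 44 parental and 23 OlaR reads and ELAVL2 (23690104 to 23826337) with 691 and 247. OlaR MDA-MB-468 libraries had 16012 reads over the same 12 genes. RNA counts do not measure DNA copies, and no cause was tested.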
